A study of Mus musculus with 12 samples.

Results

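The genes of the voltage-gated sodium, calcium and potassium channels and of the other potassium channels were followed in mouse brain tumours driven by 3 fusions of the transcriptional co-activator YAP1. Genes were taken by symbol: the potassium channel families beginning with Kcn, the sodium channel subunits beginning with Scn, and the calcium channel alpha1 subunits beginning with Cacna1. Of 24421 symbols in the count files, 115 matched, and 104 of them had at least 10 counts in at least 3 of the 12 libraries. RNA came from whole tumours after intracranial injection of RCAS viruses carrying YAP1-MAMLD1-dR3R1, carrying YAP1-FAM118B or carrying YAP1-TFE3, and from naive cortex that had received no injection, with 3 libraries in each of these 4 groups. YAP1-MAMLD1 and YAP1-FAM118B are fusions of human supratentorial ependymoma, and YAP1-TFE3 is a fusion of epithelioid haemangioendothelioma. Among the tumours the virus is the only stated difference, and naive cortex also differs in tissue and in having had no injection. The labels give neither the mouse strain, its age, nor the cells that the virus could infect. Nor do they say whether the 3 libraries of a group stand for different mice. Replicate 1 of YAP1-MAMLD1-dR3R1 and of YAP1-FAM118B and replicate 3 of naive cortex held 12686, 7793 and 6927 counts of Xist, made from the inactive X of females, and 0, 0 and 1 count of the Y-linked Ddx3y. Replicates 2 and 3 of YAP1-MAMLD1-dR3R1, replicate 3 of YAP1-FAM118B and replicate 1 of naive cortex held 0 or 1 count of Xist and 1531 to 1936 of Ddx3y, so these 3 groups each hold libraries of more than 1 animal. The YAP1-TFE3 libraries held 0 to 9 counts of Xist and 1448 to 1891 of Ddx3y, which does not show whether they came from different animals, and p-values measure the spread between the libraries at hand.

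Voltage-gated sodium channels start the action potential, voltage-gated potassium channels end it, and voltage-gated calcium channels turn it into transmitter release and calcium entry. Inward rectifiers and tandem-pore leak channels set the resting potential, and astrocytes use one of the rectifiers to clear potassium from around active neurons. Most of these genes are best known from neurons, while a smaller number belong to glia, microglia, muscle, epithelia or immune cells. In bulk tissue, fewer cells of a type and less RNA per cell cannot be told apart.

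Total counts were between 19850220 and 24760814 per library. Expression was compared as CPM, read counts scaled to the size of the library by the TMM method. The 20 markers of neurons summed to 918 to 2571 CPM in YAP1-MAMLD1-dR3R1 tumours, 6341 to 9616 CPM in YAP1-FAM118B tumours and 401 to 1881 CPM in YAP1-TFE3 tumours, against 13016 to 16202 CPM in naive cortex, the tissue named by its source label. The 10 microglia markers went the other way, at 7086 to 12034, 2234 to 2477 and 1570 to 4841 CPM in the same order of tumours, against 327 to 396 CPM in naive cortex. None of these marker genes is a channel of the set. Within the tumour groups, replicate 3 of YAP1-MAMLD1-dR3R1 had the fewest neuron transcripts of its group and replicate 2 of YAP1-TFE3 the most. Replicate 2 of YAP1-FAM118B and replicate 2 of naive cortex each held Xist together with transcripts of the Y chromosome, with 3859 and 612 Xist counts and 713 and 1178 counts of the Y-linked gene Ddx3y.

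As a group the channels were lower in tumours than in naive cortex, and the neuron-poor tumours had the least. Summed over the 103 channels that could be tested, YAP1-MAMLD1-dR3R1 tumours had 2491, 1962 and 2078 CPM, YAP1-FAM118B tumours 5218, 6752 and 4266 CPM and YAP1-TFE3 tumours 2031, 2784 and 1574 CPM, against 9967, 8724 and 8502 CPM in naive cortex. Every tumour library lay below every naive library, and the YAP1-FAM118B libraries lay between the naive libraries and the other tumours. In a test of all 16364 genes by edgeR's quasi-likelihood method, a gene was called at an adjusted p under 0.05. In YAP1-MAMLD1-dR3R1 tumours 73 channels were called lower and 10 higher, where 28.8% of all genes were called lower and 34.4% higher. In YAP1-TFE3 tumours 78 were called lower and 9 higher, where 30% of all genes were lower and 40.6% higher. In YAP1-FAM118B tumours 4 were called lower and 5 higher, where 8.45% of all genes were lower and 21.3% higher. Without replicate 2 of YAP1-FAM118B and of naive cortex, the counts lower and higher were 54 and 7, 77 and 8, and 3 and 5 in the order of these sentences. The 3 comparisons share the naive libraries and are not independent of each other.

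In YAP1-FAM118B tumours most channels lay below naive cortex without being called. Of the 103 channels 87 had a negative log2 fold change there, and 49 of them, 47.6%, had every tumour library below every naive library, where 27.1% of all genes did so. Channels whose libraries did not overlap and lay lower numbered 76, or 73.8%, in YAP1-MAMLD1-dR3R1 tumours, with 34.9% of all genes, and 80, or 77.7%, in YAP1-TFE3 tumours, with 33.2% of all genes. The median log2 fold change of the channels was −2.65 for YAP1-MAMLD1-dR3R1, −0.77 for YAP1-FAM118B and −3.82 for YAP1-TFE3. Over all genes the medians were 0.06, −0.05 and 0.23 in that order, so that relative to the typical gene of YAP1-TFE3 tumours the channels lay lower still. With DESeq2 the 4 lower and 5 higher calls of YAP1-FAM118B became 10 and 7, where 17.8% of all genes were lower and 23.3% higher with that tool. When that tumour was fitted with the naive libraries alone, 44 channels were called lower, where 18.7% of all genes were.

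**Figure D1:**
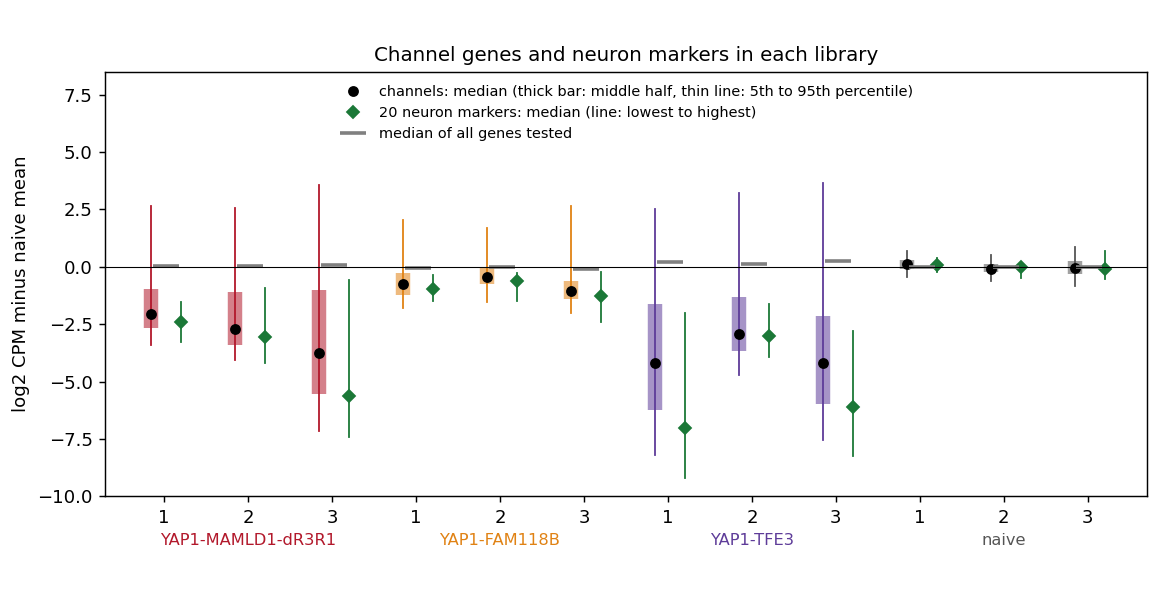
Shift of the channels in each library, as log2 CPM minus the naive mean of the same gene (vertical axis), with the libraries of 4 groups along the horizontal axis. Black points are the median of 103 channels with their middle range and their percentiles, green diamonds are the median of 20 neuron markers with their range, and grey dashes are the median of all genes tested. The channel median lay lowest, at −4.21 and −4.17, in replicates 3 and 1 of YAP1-TFE3.

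By median shift, the channels and the neuron markers put the libraries in the same order within YAP1-MAMLD1-dR3R1 and YAP1-FAM118B tumours. In YAP1-TFE3 tumours they put replicates 1 and 3 in opposite order. The median shift of the channels from the naive mean was −2.07, −2.71 and −3.74 on the log2 scale in the 3 YAP1-MAMLD1-dR3R1 libraries, and that of the neuron markers was −2.41, −3.08 and −5.65. In the YAP1-FAM118B libraries the channels were at −0.77, −0.43 and −1.06 and the markers at −0.96, −0.60 and −1.28. In the YAP1-TFE3 libraries the channels were at −4.17, −2.91 and −4.21 and the markers at −7.02, −3.01 and −6.11. Within each tumour group both medians put the library with the most neuron transcripts first. Replicate 3 of YAP1-MAMLD1-dR3R1 was the lowest of its group for 66 of the 103 channels (64.1%), where it was the lowest for 34.3% of all genes. Replicate 2 of YAP1-TFE3 was the highest of its group for 69 channels (67%), where it was the highest for 28.7% of all genes. Of the channels 68 were called lower both in YAP1-MAMLD1-dR3R1 and in YAP1-TFE3 tumours, where 21.3% of all genes were. Together they summed to 1535, 998 and 633 CPM in YAP1-MAMLD1-dR3R1 tumours, 4326, 5818 and 3495 CPM in YAP1-FAM118B tumours, 439, 958 and 585 CPM in YAP1-TFE3 tumours and 8759, 7679 and 7139 CPM in naive cortex.

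The sodium channels, which carry the upstroke of the action potential, were among the channels that were lower in the neuron-poor tumours. Of the 7 pore-forming alpha subunits 4 were called lower and 2 higher in YAP1-MAMLD1-dR3R1 tumours, 1 lower and none higher in YAP1-FAM118B tumours, and 5 lower and 1 higher in YAP1-TFE3 tumours. All 4 beta subunits, which place and modulate the pore, were called lower in YAP1-MAMLD1-dR3R1 and in YAP1-TFE3 tumours and none in YAP1-FAM118B tumours. Scn1a, the alpha subunit on which fast-spiking interneurons depend, had 24.1, 15.5 and 2.22 CPM in YAP1-MAMLD1-dR3R1 tumours, 134, 133 and 118 CPM in YAP1-FAM118B tumours and 0.965, 9.76 and 1.25 CPM in YAP1-TFE3 tumours, against 280, 198 and 270 CPM in naive cortex. Every tumour library lay below the naive libraries, and the order within each group followed the neuron markers in the neuron-poor tumours. Its log2 fold change was −4.16 ± 0.97 (SE; edgeR adjusted p = 0.004) for YAP1-MAMLD1-dR3R1, −0.96 (adjusted p = 0.414) for YAP1-FAM118B and −5.96 ± 1.06 (adjusted p = 0.000646) for YAP1-TFE3.

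Scn8a, the alpha subunit of the axon initial segment, had 56.6, 23.2 and 5.5 CPM in YAP1-MAMLD1-dR3R1 tumours, 193, 233 and 162 CPM in YAP1-FAM118B tumours and 1.4, 27.5 and 2.28 CPM in YAP1-TFE3 tumours, against 471, 373 and 350 CPM in naive cortex. The spread within the YAP1-TFE3 group was wide, with replicate 2 well above the others, and no tumour library reached the naive range. The edgeR adjusted p was 0.0129 for YAP1-MAMLD1-dR3R1, or 0.0528 without its replicate 2, and 0.0028 for YAP1-TFE3. Scn3a, which is most abundant in the embryonic brain, had log2 fold changes of −2.24 for YAP1-MAMLD1-dR3R1 (adjusted p = 0.00706) and −3.67 for YAP1-TFE3 (adjusted p = 0.000455), and −1.19 for YAP1-FAM118B, which was not called (0.134, or 0.0444 without replicate 2 of that tumour).

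Scn2b and Scn4b, beta subunits linked to the alpha subunit by a disulphide bond, differed from each other in YAP1-FAM118B tumours. Scn2b had 195, 263 and 143 CPM there, all below the 385, 345 and 371 CPM of naive cortex, and a log2 fold change of −0.87 that was not called (adjusted p = 0.47). Scn4b, a subunit rich in striatal neurons, had 171, 419 and 56 CPM there, which overlapped the 252, 170 and 118 CPM of naive cortex (log2 fold change 0.26, adjusted p = 0.865). In YAP1-TFE3 tumours Scn4b had 3.18, 0.709 and 0.139 CPM, every library far below naive cortex, and its log2 fold change was −7.07 ± 1.41 (edgeR adjusted p = 0.00129). Scn4b had 43, 25.7 and 1.86 CPM in YAP1-MAMLD1-dR3R1 tumours, also below naive cortex, with an adjusted p of 0.0438. That call was lost when any naive library was left out (adjusted p = 0.101, 0.0739 and 0.0572 for replicates 1, 2 and 3), when replicate 2 or 3 of YAP1-MAMLD1-dR3R1 was (0.101 and 0.0734), and when replicate 1 of YAP1-FAM118B was (0.0602).

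**Figure D2:**
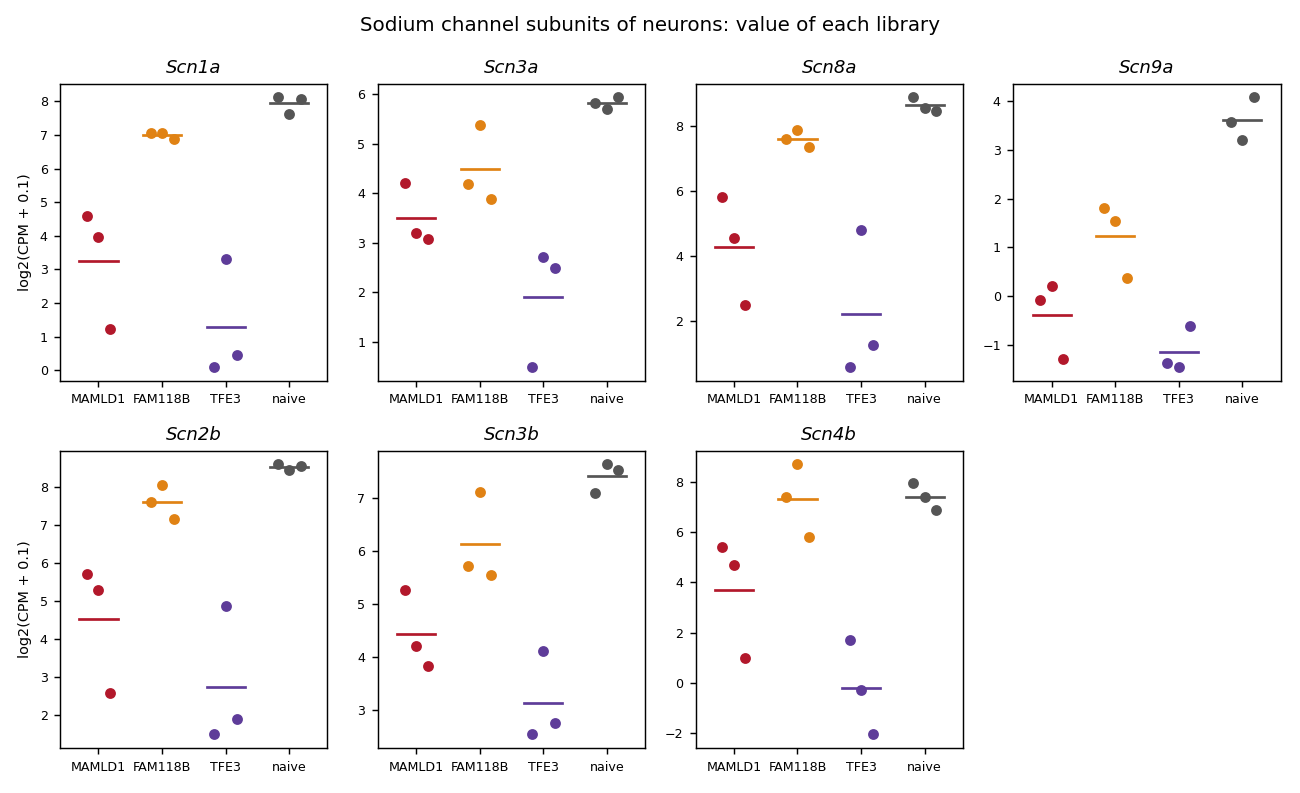
Sodium channel subunits of neurons in each library, as log2(CPM + 0.1) on the vertical axis with a range of its own in each panel, and the 4 groups along the horizontal axis. Points are the 3 libraries of a group and bars are their mean. The naive libraries lie above every tumour library for Scn1a, Scn3a, Scn8a, Scn9a and Scn2b, and the YAP1-FAM118B libraries overlap them for Scn4b.

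Of the 10 alpha1 subunits of calcium channels, 8 were called lower and 2 higher in YAP1-MAMLD1-dR3R1 tumours, 7 lower and 1 higher in YAP1-TFE3 tumours and none in either direction in YAP1-FAM118B tumours, where their median log2 fold change was −0.75. Cacna1a, which forms the P/Q-type channel of presynaptic terminals, had 29.8, 17.5 and 8.07 CPM in YAP1-MAMLD1-dR3R1 tumours, 94.1, 98.7 and 77.8 CPM in YAP1-FAM118B tumours and 17.2, 25.2 and 9.61 CPM in YAP1-TFE3 tumours, against 191, 148 and 140 CPM in naive cortex. Its tumour libraries all lay below the naive ones, with the YAP1-FAM118B libraries between. The log2 fold changes were −3.11 ± 0.47 (edgeR adjusted p = 0.000304), −0.82 ± 0.43 (0.176) and −3.20 ± 0.47 (0.00019) for the same 3 tumours. Cacna1c, the L-type subunit shared by neurons and muscle, was called lower in YAP1-MAMLD1-dR3R1 and YAP1-TFE3 tumours, with log2 fold changes of −2.69 and −2.77. Cacna1i, a T-type subunit, had 0.434, 6.78 and 0.604 CPM in YAP1-TFE3 tumours against 153, 114 and 88.3 CPM in naive cortex, with no overlap and a log2 fold change of −5.49 ± 1.16 (adjusted p = 0.0018). Cacna1d, Cacna1f and Cacna1s, which went the other way in some tumours, are described with the channels that rose.

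Voltage-gated potassium channels repolarise the membrane. All 4 Kv3 genes, which let interneurons fire fast, all 3 Kv beta genes and all 4 genes of the KChIP proteins that bind Kv4 were called lower in both YAP1-MAMLD1-dR3R1 and YAP1-TFE3 tumours, and none of these 11 in YAP1-FAM118B tumours. Of the 6 Kv1 genes 3 were called lower in YAP1-MAMLD1-dR3R1 tumours, 1 in YAP1-FAM118B tumours and 5 in YAP1-TFE3 tumours, and of the 3 Kv4 genes 2, 0 and 3. None of the 3 KCNE subunits was called lower, and 1, 1 and 2 were called higher in the same order. For YAP1-MAMLD1-dR3R1 the 33.3% of them called higher was near the 34.4% of all genes. Kcnc1, of the Kv3 family, had 28.1, 19.8 and 5.1 CPM in YAP1-MAMLD1-dR3R1 tumours, 116, 116 and 90.7 CPM in YAP1-FAM118B tumours and 6.13, 18.4 and 4.78 CPM in YAP1-TFE3 tumours, against 223, 199 and 257 CPM in naive cortex. Its log2 fold changes were −3.68 ± 0.65 (edgeR adjusted p = 0.000778), −1.08 ± 0.59 (0.189) and −4.53 ± 0.67 (0.000207). The YAP1-FAM118B libraries lay below all naive libraries here too, without a call. Of the 11 genes of Kv2 and its silent partners, subunits that do not form channels alone, 9 were called lower in YAP1-MAMLD1-dR3R1 tumours, 1 in YAP1-FAM118B tumours and 10 in YAP1-TFE3 tumours. The exception in YAP1-TFE3 tumours was Kcns1, which was higher.

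Kcng3, another silent subunit, had no count in any YAP1-TFE3 library against 102 counts over the naive group. It was at least 31.1-fold lower there with 3 counts over the group as the floor. Only with its naive libraries did Kcng3 meet the count minimum, so its being lower is tied to how it was chosen. Kcnd2, the A-type Kv4 channel of dendrites, had 31, 25.7 and 22.9 CPM in YAP1-MAMLD1-dR3R1 tumours and 1.54, 7.85 and 4.6 CPM in YAP1-TFE3 tumours, against 114, 132 and 124 CPM in naive cortex. Both tumours lay below naive cortex without overlap, by log2 fold changes of −2.21 ± 0.47 (edgeR adjusted p = 0.00251) and −4.72 ± 0.53 (adjusted p = 3.71e-05). Kcnd1, a Kv4 channel also made by glia and other non-neuronal cells, had 10.2, 13.4 and 15.2 CPM in YAP1-MAMLD1-dR3R1 tumours, 8.66, 9.57 and 8.3 CPM in YAP1-FAM118B tumours and 2.7, 2.66 and 7.94 CPM in YAP1-TFE3 tumours, against 13.8, 9.76 and 8.27 CPM in naive cortex. It was called lower in YAP1-TFE3 tumours and in neither other tumour, with a log2 fold change of −1.26 ± 0.41 (adjusted p = 0.0186).

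Of the Kv7 genes, Kcnq3 carries part of the M current that holds neurons back from firing. Kcnq3 was called lower in YAP1-MAMLD1-dR3R1 and YAP1-TFE3 tumours, with log2 fold changes of −3.07 and −5.39. All 8 genes of the EAG, ELK and ERG families were called lower in YAP1-TFE3 tumours, 5 in YAP1-MAMLD1-dR3R1 tumours and none in YAP1-FAM118B tumours. Kcnh5, of the EAG family, was the steadiest of these, with 3.92, 4.21 and 3.77 CPM in YAP1-MAMLD1-dR3R1 tumours, 20.6, 18.9 and 18 CPM in YAP1-FAM118B tumours and 0.482, 0.31 and 0.325 CPM in YAP1-TFE3 tumours, against 40.6, 24.3 and 22.4 CPM in naive cortex. The 4 groups did not overlap for Kcnh5, and it fell by 2.87 (SE 0.25; adjusted p = 1.64e-05) and 6.27 (SE 0.30; adjusted p = 4.38e-07) on the log2 scale in YAP1-MAMLD1-dR3R1 and YAP1-TFE3 tumours.

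Many calcium-activated channels and inward rectifiers were also lower in the neuron-poor tumours. Kcnj4 and Kcnn3 were called lower in YAP1-MAMLD1-dR3R1 tumours and not in YAP1-TFE3 tumours. All 4 genes of the class that holds the BK and sodium-activated channels were called lower in YAP1-MAMLD1-dR3R1 and in YAP1-TFE3 tumours. None of them was in YAP1-FAM118B tumours. Kcnma1, the BK pore found in neurons and smooth muscle, had 22.4, 9.62 and 9.14 CPM in YAP1-MAMLD1-dR3R1 tumours, 46.7, 89 and 47.6 CPM in YAP1-FAM118B tumours and 2.27, 11 and 3.48 CPM in YAP1-TFE3 tumours, against 144, 104 and 124 CPM in naive cortex. Every tumour library lay below the naive ones. Of the 14 inward rectifiers 9 were called lower in YAP1-MAMLD1-dR3R1 tumours, 1 in YAP1-FAM118B tumours and 8 in YAP1-TFE3 tumours, and Kcnj15 was called higher in each. Kcnj9, a subunit of the channels that G proteins open, had 19.7, 13.1 and 4.12 CPM in YAP1-MAMLD1-dR3R1 tumours, 120, 113 and 98.5 CPM in YAP1-FAM118B tumours and 0.289, 7.76 and 1.35 CPM in YAP1-TFE3 tumours, against 202, 170 and 133 CPM in naive cortex. Its log2 fold changes were −3.77 (edgeR adjusted p = 0.00468), −0.60 (0.587) and −5.74 (0.00056). Of the 10 tandem-pore channels tested, 6 were called lower and 2 higher in YAP1-MAMLD1-dR3R1 tumours, none lower and 2 higher in YAP1-FAM118B tumours and 5 lower and 1 higher in YAP1-TFE3 tumours. Their share called higher in YAP1-FAM118B tumours, 20%, was near the 21.3% of all genes. Kcnk4, a mechanically gated leak channel of neurons, had 0.621, 0.677 and 0.0887 CPM in YAP1-MAMLD1-dR3R1 tumours and 7.93, 7.51 and 7.7 CPM in YAP1-FAM118B tumours, against 16.1, 11.3 and 7.57 CPM in naive cortex, and the log2 fold change of the first was −4.64 ± 0.63 (adjusted p = 0.000163).

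**Figure D3:**
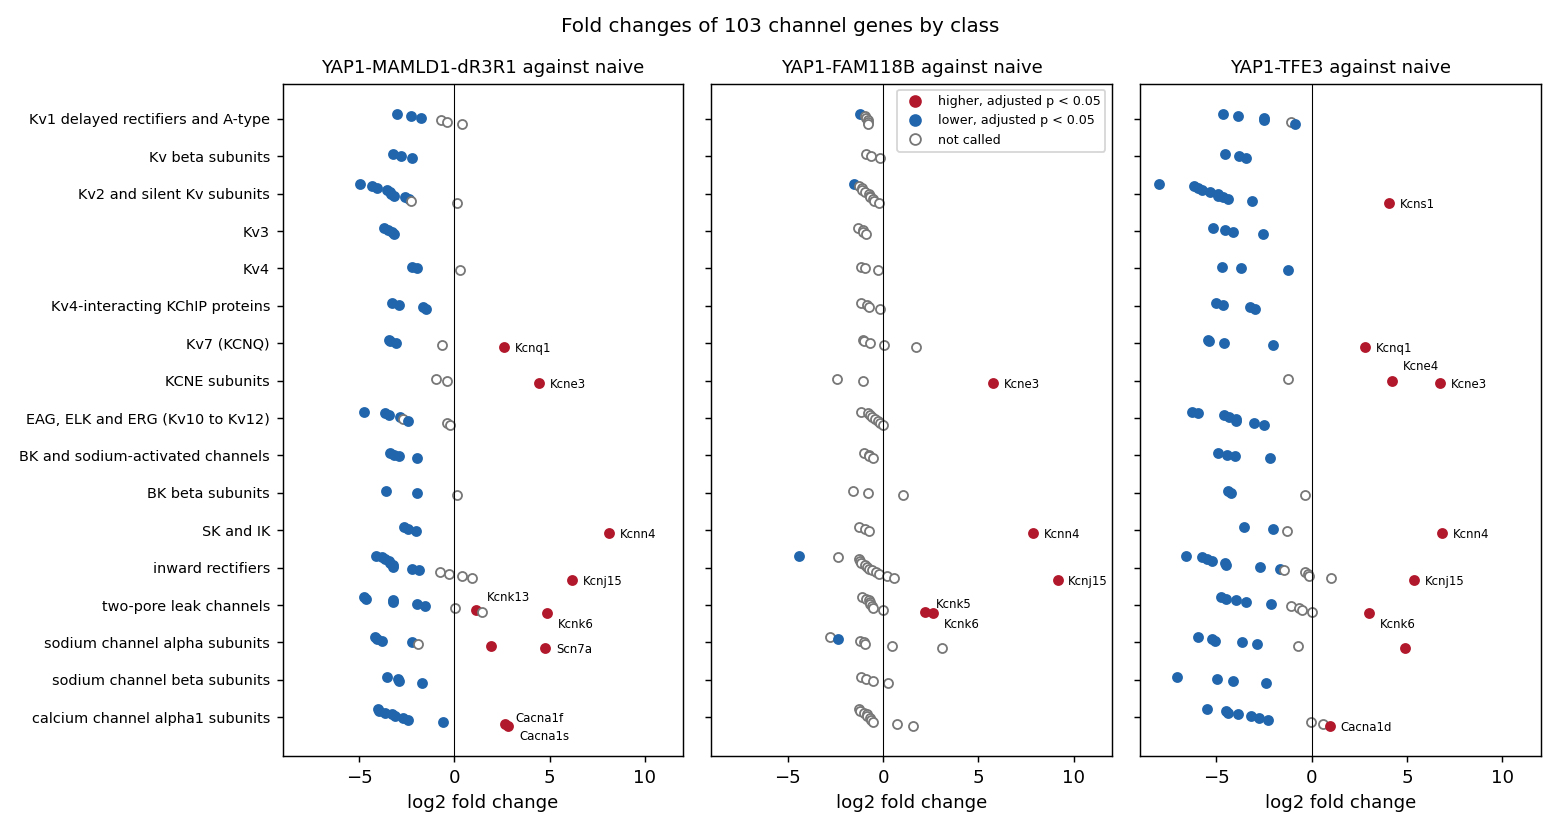
Log2 fold change of 103 channels against naive cortex (horizontal axis) by channel class (rows), with a panel for each fusion. Red points were called higher and blue points lower at an edgeR adjusted p under 0.05, and open points were not called. The blue points fill most rows in the YAP1-MAMLD1-dR3R1 and YAP1-TFE3 panels, with 73 and 78 channels, and number 4 in the YAP1-FAM118B panel.

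Only 3 channels were called lower in every fusion: Kcng2, Kcnj5 and Scn9a, where 6.07% of all genes were. Kcnj5 reached 10 counts in 3 naive libraries and in 1 tumour library. The naive libraries thus brought it into the set, and its being lower is tied to how it was chosen. Kcnj5, a G-protein-gated rectifier best known from the atrium of the heart and the adrenal gland, had 0.971, 0.338 and 0.0443 CPM in YAP1-MAMLD1-dR3R1 tumours, 0.205, 0.378 and 0.0923 CPM in YAP1-FAM118B tumours and 0.0482, 0.0443 and 0.0464 CPM in YAP1-TFE3 tumours, against 3.69, 2.72 and 8.4 CPM in naive cortex. No tumour library reached the naive range. The YAP1-TFE3 values are 3 counts in all, 105-fold below naive cortex with a 95% counting interval of 35.8 to 513. The log2 fold changes were −3.42 ± 0.86 (edgeR adjusted p = 0.00604) for YAP1-MAMLD1-dR3R1 and −4.41 ± 0.91 (0.0054) for YAP1-FAM118B. Scn9a, the alpha subunit that sets the threshold of pain-sensing neurons, had 0.854, 1.06 and 0.31 CPM in YAP1-MAMLD1-dR3R1 tumours, 3.41, 2.81 and 1.2 CPM in YAP1-FAM118B tumours and 0.289, 0.266 and 0.557 CPM in YAP1-TFE3 tumours, against 11.7, 9.09 and 16.8 CPM in naive cortex. The groups did not overlap with naive cortex, and the log2 fold changes were −4.07 ± 0.57 (adjusted p = 0.000192), −2.34 ± 0.52 (0.00787) and −5.06 ± 0.60 (5.23e-05).

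Kcng2, a silent subunit, had 2.49, 0.773 and 1.86 CPM in YAP1-MAMLD1-dR3R1 tumours, 3.08, 2.9 and 3.46 CPM in YAP1-FAM118B tumours and 0.145, 0.532 and 0.557 CPM in YAP1-TFE3 tumours, against 6.32, 10.2 and 10.2 CPM in naive cortex. All tumour libraries lay below the naive ones. Its log2 fold changes were −2.37 ± 0.50 (edgeR adjusted p = 0.00239), −1.50 ± 0.49 (0.0419) and −4.41 ± 0.56 (7.92e-05). The YAP1-FAM118B call of Kcng2 was lost without replicate 1, 2 or 3 of naive cortex (adjusted p = 0.0654, 0.113 and 0.11), replicate 3 of YAP1-MAMLD1-dR3R1 (0.0626), replicate 1, 2 or 3 of YAP1-FAM118B (0.122, 0.0883 and 0.105), and replicate 2 or 3 of YAP1-TFE3 (0.0521 and 0.0515). The fourth channel called lower in YAP1-FAM118B tumours was Kcna3, a Kv1 channel of lymphocytes and microglia, with 6.29, 7.59 and 10 CPM in YAP1-MAMLD1-dR3R1 tumours, 5.34, 7.51 and 3.74 CPM in YAP1-FAM118B tumours and 1.06, 2.93 and 2.83 CPM in YAP1-TFE3 tumours, against 15.6, 10.8 and 12.3 CPM in naive cortex. It was below naive cortex in every tumour library. The microglia markers were above naive cortex there, and their part in the level of Kcna3 was not tested. The log2 fold change of Kcna3 was −1.22 ± 0.39 (edgeR adjusted p = 0.0406) for YAP1-FAM118B, −2.50 ± 0.41 (0.000401) for YAP1-TFE3 and −0.69 (0.141) for YAP1-MAMLD1-dR3R1. The YAP1-FAM118B call of Kcna3 was lost without replicate 1, 2 or 3 of naive cortex (0.138, 0.0628 and 0.0802), replicate 2 or 3 of YAP1-MAMLD1-dR3R1 (0.0636 and 0.052), and replicate 1 or 3 of YAP1-FAM118B (0.118 and 0.149). Without replicate 1 of YAP1-TFE3, Kcna3 was called lower in YAP1-MAMLD1-dR3R1 tumours too (0.0415).

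Against this fall, 14 channels were called higher in at least 1 tumour, where 47.4% of all genes were. Of these 4 were higher in every fusion, Kcnn4, Kcnk6, Kcne3 and Kcnj15, where 18.6% of all genes were called higher in every fusion. No naive library reached 10 counts for Kcnn4, Kcne3 and Kcnj15, nor for Cacna1f among the 14. Only tumour libraries brought these channels into the set, so their being higher is tied to how they were chosen. Kcnn4, the intermediate-conductance calcium-activated potassium channel of immune cells and epithelia, had 27.8, 51.7 and 44.5 CPM in YAP1-MAMLD1-dR3R1 tumours, 35.4, 21.2 and 45.4 CPM in YAP1-FAM118B tumours and 9.07, 11.8 and 28.7 CPM in YAP1-TFE3 tumours, against 0.246, 0 and 0.176 CPM in naive cortex. The naive libraries held 10 counts in all, and every tumour library lay far above them. Its log2 fold changes were 8.14 ± 0.80 (edgeR adjusted p = 2.75e-05), 7.86 ± 0.79 (9.12e-05) and 6.82 ± 0.77 (3.79e-05). The 3 other members of the SK and IK class, the small-conductance channels of neurons, were called lower in YAP1-MAMLD1-dR3R1 tumours.

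Kcnk6, a tandem-pore channel through which macrophages lose potassium, had 75, 122 and 130 CPM in YAP1-MAMLD1-dR3R1 tumours, 21.2, 24.1 and 24.4 CPM in YAP1-FAM118B tumours and 19.2, 14.2 and 56.3 CPM in YAP1-TFE3 tumours, against 4.06, 4.73 and 2.46 CPM in naive cortex. No tumour library overlapped naive cortex, and the YAP1-MAMLD1-dR3R1 libraries stood above those of both other tumours. The log2 fold changes were 4.86 ± 0.54 (edgeR adjusted p = 5.47e-05), 2.63 ± 0.49 (0.00318) and 2.99 ± 0.50 (0.000441). Kcnk6 was lower in YAP1-FAM118B than in YAP1-MAMLD1-dR3R1 tumours by 2.23 (adjusted p = 0.0124, or 0.0635 without replicate 2 of YAP1-FAM118B and of naive cortex) and lower in YAP1-TFE3 than in YAP1-MAMLD1-dR3R1 tumours by 1.87 (0.0111) on the log2 scale. In the same libraries the microglia markers summed to 7086, 11904 and 12034 CPM in YAP1-MAMLD1-dR3R1 tumours, 2446, 2234 and 2477 CPM in YAP1-FAM118B tumours and 1842, 1570 and 4841 CPM in YAP1-TFE3 tumours, against 371, 396 and 327 CPM in naive cortex. Of the 10 microglia markers 10 were called higher in YAP1-MAMLD1-dR3R1 tumours, 7 in YAP1-FAM118B tumours and 9 in YAP1-TFE3 tumours, and none of them was at 0 in a library. Of the 10 macrophage markers 9, 9 and 8 were called higher, and 1 was called lower in YAP1-TFE3 tumours. Cd163 was at 0 in replicates 1 and 2 of YAP1-TFE3. The macrophage markers summed to 2421 to 4663, 722 to 1706 and 1855 to 2818 CPM in the 3 tumours against 46.2 to 59.4 CPM in naive cortex, and the part of either list in these results was not tested.

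Kcne3, an accessory subunit that keeps Kcnq1 channels open in epithelia, was low everywhere, with 0.893, 0.145 and 2.93 CPM in YAP1-MAMLD1-dR3R1 tumours, 4.97, 1.01 and 4.15 CPM in YAP1-FAM118B tumours and 2.51, 4.57 and 12.2 CPM in YAP1-TFE3 tumours, against 0.0821, 0.0419 and 0.044 CPM, 4 counts in all, in naive cortex. All tumour libraries were above the naive ones, the lowest being replicate 2 of YAP1-MAMLD1-dR3R1. The edgeR adjusted p was 0.00949, 0.00643 and 0.000912 in the order of the tumours. Kcnj15, an inward rectifier of kidney, stomach and other epithelia, had 1.24, 0.58 and 2.44 CPM in YAP1-MAMLD1-dR3R1 tumours, 14.1, 1.26 and 18.1 CPM in YAP1-FAM118B tumours and 0.289, 0.798 and 1.3 CPM in YAP1-TFE3 tumours, against a single count over the naive group. The ratio to naive cortex was 102 (95% counting interval 17.9 to 4062) in YAP1-MAMLD1-dR3R1 tumours, 779 (139 to 30818) in YAP1-FAM118B tumours and 56.9 (9.78 to 2291) in YAP1-TFE3 tumours, with edgeR adjusted p of 0.00348, 0.00108 and 0.00681. Replicates 1 and 3 of YAP1-FAM118B stood apart from replicate 2 in Kcnj15, as they did in the 7 osteoclast markers, which summed to 6644, 72.8 and 10169 CPM there, to 37.3 to 136 CPM in YAP1-MAMLD1-dR3R1 tumours, 68.7 to 214 CPM in YAP1-TFE3 tumours and 10.3 to 19.4 CPM in naive cortex. Of those 7 markers 6 were called higher in YAP1-FAM118B tumours, and Ocstamp was at 0 in 2 YAP1-MAMLD1-dR3R1 libraries and 2 naive libraries, Dcstamp and Atp6v0d2 in 1 naive library each, and Calcr in 1 YAP1-TFE3 library. Replicate 2 of YAP1-FAM118B was also the lowest of its group for the fibroblast markers, at 14343, 3277 and 19216 CPM. The same held for the macrophage markers, at 1571, 722 and 1706 CPM, and the pericyte and smooth muscle markers, at 1021, 739 and 1432 CPM. The neuron markers put it highest, at 7831, 9616 and 6341 CPM. The part of any of these lists in the level of Kcnj15 was not tested.

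**Figure D4:**
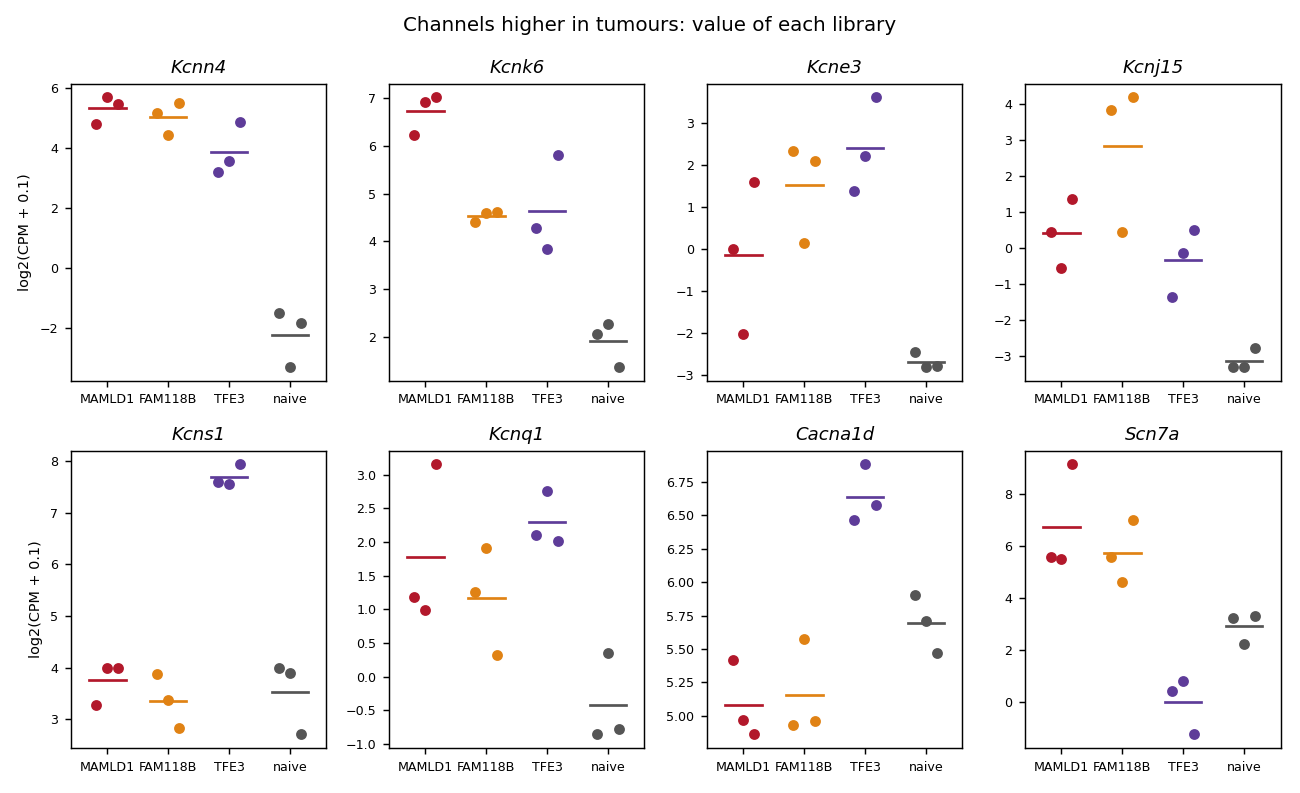
Channels that were higher in tumours, as log2(CPM + 0.1) on the vertical axis with a range of its own in each panel, and the 4 groups along the horizontal axis. Points are the 3 libraries of a group and bars are their mean. Kcnn4, Kcnk6, Kcne3 and Kcnj15 lie above naive cortex in all 9 tumour libraries, Kcns1 and Cacna1d are highest in YAP1-TFE3 tumours, and Scn7a is below naive cortex there.

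Promoter sequences are shown for 3 channels that were called higher and whose window held a TEAD motif or an E-box. YAP1 acts through TEAD factors, whose core motif is GGAATG, which reads on the opposite strand of the promoter as CATTCC, and TFE3 belongs to the family that binds the E-box CACGTG, which reads the same on both strands. The sequences come from RefSeq on build GRCm38.p6, each covering the 250 bases before the start that RefSeq gives the gene and running 5′ to 3′ along the gene's strand, with either motif in capitals. Kcnn4 is on the plus strand at chr7:24370013-24370262, Kcns1 on the minus strand at chr2:164171114-164171363 and Scn7a on the minus strand at chr2:66784911-66785160.
Kcnn4: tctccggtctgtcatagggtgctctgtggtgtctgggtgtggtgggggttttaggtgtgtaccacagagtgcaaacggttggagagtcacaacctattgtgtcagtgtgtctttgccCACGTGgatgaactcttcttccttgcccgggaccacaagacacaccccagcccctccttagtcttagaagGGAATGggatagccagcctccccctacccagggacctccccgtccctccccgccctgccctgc
Kcns1: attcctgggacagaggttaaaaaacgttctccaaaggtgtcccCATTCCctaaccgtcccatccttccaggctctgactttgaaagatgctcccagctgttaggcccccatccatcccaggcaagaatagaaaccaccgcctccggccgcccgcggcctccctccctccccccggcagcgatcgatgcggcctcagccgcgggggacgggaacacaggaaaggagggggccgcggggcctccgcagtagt
Scn7a: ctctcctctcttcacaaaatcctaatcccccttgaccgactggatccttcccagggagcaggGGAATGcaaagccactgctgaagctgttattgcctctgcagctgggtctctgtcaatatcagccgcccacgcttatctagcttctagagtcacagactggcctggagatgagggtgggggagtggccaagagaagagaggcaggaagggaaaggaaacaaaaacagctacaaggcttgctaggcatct
In Kcnn4 the E-box began 133 bases and the TEAD motif 63 bases before the start. The TEAD motif began 207 bases before the start of Kcns1 and 188 bases before that of Scn7a. The last 4 bases of the Scn7a window lie within the gene as GENCODE annotates it, and the windows of Kcnn4 and Kcns1 lie wholly outside theirs. The window of Kcne4, which held an E-box, lies with 153 of its bases inside the GENCODE gene and is not shown. Over the channels RefSeq gave 103 windows, of which 78 met the start of a GENCODE transcript. The counts that follow took in all 103. Of the 14 channels called higher, 11 had a window in the table, 5 of them with the TEAD motif (Cacna1s, Kcnk13, Kcnn4, Kcns1 and Scn7a) and 2 with the E-box (Kcne4 and Kcnn4). Of the 68 channels lower in both neuron-poor tumours, 43 had a window, 6 with the TEAD motif and 2 with the E-box. Among the windows of all genes, 14.4% of genes had the TEAD motif and 6.86% the E-box, and among the 74 channels with a window 21.6% and 6.76% did. A gene can have several windows. Counted by window, the shares were 12.6% and 6.02% for all genes and 15.5% and 5.83% for the channels. A match of 6 bases describes the sequence and is not a bound site.

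Kcns1 and Cacna1d were higher in YAP1-TFE3 tumours than in naive cortex and than in either other tumour. Kcns1, a silent subunit that modifies Kv2 channels in sensory neurons, had 9.55, 15.8 and 15.7 CPM in YAP1-MAMLD1-dR3R1 tumours, 14.6, 10.2 and 6.97 CPM in YAP1-FAM118B tumours and 192, 187 and 244 CPM in YAP1-TFE3 tumours, against 15.8, 14.8 and 6.42 CPM in naive cortex. The first pair of tumours overlapped naive cortex, and all YAP1-TFE3 libraries were far above it. The YAP1-TFE3 log2 fold change was 4.07 ± 0.41 against naive cortex (edgeR adjusted p = 1.76e-05), 3.92 ± 0.40 against YAP1-MAMLD1-dR3R1 (8.32e-05) and 4.29 ± 0.41 against YAP1-FAM118B (4.39e-05). Per kilobase of exon Kcns1 had the highest mean level of the tested channels in YAP1-TFE3 tumours, at 76.6 CPM per kb.

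Cacna1d, an L-type subunit of pacemaking neurons, heart and endocrine cells, had 88.3, 118 and 95.3 CPM in YAP1-TFE3 tumours, above all naive libraries at 59.7, 52.1 and 44.2 CPM. YAP1-MAMLD1-dR3R1 tumours had 42.6, 31.2 and 29 CPM, below naive cortex, and YAP1-FAM118B tumours 30.4, 47.6 and 31 CPM. In YAP1-TFE3 tumours Cacna1d rose by a log2 fold change of 0.95 ± 0.22 (edgeR adjusted p = 0.00324), and it fell by 0.60 (SE 0.22) in YAP1-MAMLD1-dR3R1 tumours (0.0352). The second call was lost without replicate 1 or 2 of naive cortex (0.108 and 0.0752) and without replicate 2 or 3 of YAP1-MAMLD1-dR3R1 (0.0967 and 0.115). In YAP1-FAM118B tumours its adjusted p was 0.102, or 0.0218 without replicate 2 of that group. The difference of YAP1-TFE3 from YAP1-MAMLD1-dR3R1 was 1.55 ± 0.22 (0.000562) and from YAP1-FAM118B 1.47 ± 0.22 (0.000575).

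Among the accessory subunits, Kcne4, which inhibits Kv channels, was called higher in YAP1-TFE3 tumours on the strength of a single library, with 23.2, 203 and 1.53 CPM there against 3.04, 2.76 and 6.38 CPM in naive cortex. Replicate 3 lay below the naive range. The adjusted p was 0.0146, and 0.204 without replicate 2 of YAP1-TFE3, 0.0612 without replicate 1 and 0.053 without replicate 2 of naive cortex. Kcnq1, the pore that Kcne3 joins and the slow repolarising channel of the heart, had 2.17, 1.89 and 8.78 CPM in YAP1-MAMLD1-dR3R1 tumours, 2.3, 3.65 and 1.15 CPM in YAP1-FAM118B tumours and 4.2, 6.65 and 3.95 CPM in YAP1-TFE3 tumours, against 0.452, 1.17 and 0.484 CPM in naive cortex. It was the Kv7 gene that ran against the rest of its class, with log2 fold changes of 2.60 ± 0.71 (edgeR adjusted p = 0.00936), 1.75 (0.0847, or 0.0326 without replicate 3 of YAP1-MAMLD1-dR3R1) and 2.80 ± 0.71 (0.00538). Kcnq1ot1, the antisense transcript of its locus, was lower in every tumour library, at 1.55 to 2.29, 1.25 to 1.89 and 1.64 to 2.27 CPM in the same tumours against 2.60 to 5.02 CPM in naive cortex. The strand setting of the counting is not given, so reads of the pair cannot be told apart. The pericyte and smooth muscle markers summed to 5352, 5012 and 2689 CPM in YAP1-TFE3 tumours against 117 to 146 CPM in naive cortex. Of these 10 markers 4 were called higher and 1 lower there, Acta2 made up 4656, 4396 and 2249 CPM of the sum, and none was at 0 in a library. In YAP1-MAMLD1-dR3R1 tumours the markers summed to 448 to 1475 CPM and in YAP1-FAM118B tumours to 739 to 1432 CPM. Their part in these results was not tested.

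In YAP1-MAMLD1-dR3R1 tumours Scn7a, a sodium-level sensor of glia that opens without voltage, had 48.4, 45.5 and 566 CPM, all above the 9.36, 4.57 and 9.99 CPM of naive cortex. YAP1-FAM118B tumours had 48.2, 24.8 and 129 CPM, again above naive cortex, and YAP1-TFE3 tumours 1.25, 1.64 and 0.325 CPM, below it. The direction thus split between the fusions: the log2 fold change was 4.78 ± 1.13 (edgeR adjusted p = 0.00443) for YAP1-MAMLD1-dR3R1, 3.08 ± 1.05 (0.05) for YAP1-FAM118B and −2.88 ± 1.12 (0.0393) for YAP1-TFE3. YAP1-TFE3 lay below YAP1-MAMLD1-dR3R1 by a log2 difference of −7.67 ± 1.32 (0.00151) and below YAP1-FAM118B by −5.96 (0.00298). The call in YAP1-TFE3 tumours was lost without replicate 1 or 3 of naive cortex (0.0654 and 0.0807), without replicate 1 of YAP1-FAM118B (0.0505), and without replicate 1 or 3 of YAP1-TFE3 (0.0753 and 0.099). In YAP1-FAM118B tumours the adjusted p, at the threshold with all libraries, was 0.0381, 0.0398 and 0.00937 without replicates 1, 2 and 3 of YAP1-MAMLD1-dR3R1, 0.0384 without replicate 2 of YAP1-FAM118B and 0.0458 without replicate 3 of YAP1-TFE3.

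Kcnk13, the main leak channel of resting microglia, had 25.7, 20.8 and 31.2 CPM in YAP1-MAMLD1-dR3R1 tumours, 12.8, 11.6 and 10.7 CPM in YAP1-FAM118B tumours and 7.62, 5.23 and 12.1 CPM in YAP1-TFE3 tumours, against 10.4, 9.72 and 15.4 CPM in naive cortex. The first group stood above naive cortex and the other tumours overlapped it. The microglia markers were above naive cortex in all 9 tumour libraries, and their part in the level of Kcnk13 was not tested. The log2 fold changes were 1.13 ± 0.30 (edgeR adjusted p = 0.00862), −0.02 and −0.51 (0.151), and the first had an adjusted p of 0.05 without replicate 2 of YAP1-FAM118B and of naive cortex. In YAP1-TFE3 tumours Kcnk13 was called lower without replicate 1 of naive cortex (0.0488), replicate 2 or 3 of YAP1-MAMLD1-dR3R1 (0.0463 and 0.047) or replicate 3 of YAP1-TFE3 (0.0065). Kcnk5, an acid-sensitive leak channel of kidney and T cells, was called higher in YAP1-FAM118B tumours, with 2.83, 5.22 and 6.74 CPM in YAP1-MAMLD1-dR3R1 tumours, 7.68, 4.37 and 13.1 CPM in YAP1-FAM118B tumours and 0.241, 1.15 and 1.11 CPM in YAP1-TFE3 tumours, against 1.31, 2.56 and 1.54 CPM in naive cortex. Its log2 fold change was 1.45 (0.0543), 2.22 ± 0.61 (0.0207) and −1.10 (0.129) for the 3 tumours. The YAP1-FAM118B call was lost without replicate 1 or 3 of naive cortex (0.0768 and 0.0712) or replicate 3 of YAP1-FAM118B (0.0899). Kcnk5 was called higher in YAP1-MAMLD1-dR3R1 tumours too without replicate 1 of that group (0.037), replicate 2 of YAP1-FAM118B (0.049) or replicate 1 of YAP1-TFE3 (0.0293).

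A pair of calcium channels of other tissues was called higher in YAP1-MAMLD1-dR3R1 tumours at low levels. Cacna1f, of the retina, had 0.893, 1.74 and 0.976 CPM there against 0.0411, 0.209 and 0.308 CPM in naive cortex, without overlap (log2 fold change 2.66 ± 0.88, edgeR adjusted p = 0.0232). The call was lost without replicate 1 or 2 of naive cortex (0.0768 and 0.0615) or replicate 2 of YAP1-MAMLD1-dR3R1 (0.0755). Cacna1s, of skeletal muscle, had 1.28, 15.2 and 13.3 CPM there against 1.03, 0.796 and 2.38 CPM in naive cortex, with replicate 1 inside the naive range (log2 fold change 2.82 ± 0.89, adjusted p = 0.0189). It was lost without replicate 1 or 2 of naive cortex (0.0661 and 0.067) or replicate 2 of YAP1-MAMLD1-dR3R1 (0.0632).

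No fusion gave a call for 8 channels: Kcna5, Kcne2, Kcnj10, Kcnj13, Kcnj2, Kcnj8, Kcnmb1 and Scn11a. Kcnj10, with which astrocytes clear potassium, had 406, 305 and 182 CPM in YAP1-MAMLD1-dR3R1 tumours, 295, 227 and 171 CPM in YAP1-FAM118B tumours and 556, 539 and 89.5 CPM in YAP1-TFE3 tumours, against 452, 387 and 676 CPM in naive cortex. The YAP1-FAM118B libraries all lay below naive cortex, and replicate 3 of YAP1-TFE3 was far below its group. The log2 fold changes were −0.76 (edgeR adjusted p = 0.265), −1.13 (0.163, or 0.04 without replicate 3 of YAP1-TFE3) and −0.35 (0.592). Kcnj2, a rectifier of muscle and vessels, had 22.5 to 28.1, 12.6 to 28.5 and 15.7 to 17.7 CPM in the 3 tumours against 15 to 21.6 CPM in naive cortex. Kcnj8, the rectifier that marks pericytes, had log2 fold changes of 0.91, 0.56 and 1.01 with adjusted p of 0.18, 0.471 and 0.134.

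Kcnj13 and Kcne2, a rectifier and an accessory subunit of the choroid plexus, varied between libraries of the same group. Kcnj13 had 12.7, 0.0483 and 0.0887 CPM in YAP1-MAMLD1-dR3R1 tumours, 1.48, 0.756 and 0.784 CPM in YAP1-FAM118B tumours and 3.09, 2.62 and 0.0929 CPM in YAP1-TFE3 tumours, against 0.328, 1.93 and 13.5 CPM in naive cortex. Kcne2 had 6.83, 0.0483 and 0 CPM, 0.698, 0.168 and 0.83 CPM, 3.62, 0.266 and 0 CPM and 0.0821, 0.377 and 8.62 CPM in the same libraries. The 8 markers of ependyma and choroid plexus were highest in the same library as both channels in every group but YAP1-FAM118B. They summed to 2304, 96.3 and 90.8 CPM, 90.5, 122 and 137 CPM, 1220, 415 and 107 CPM and 18.3, 97.2 and 1700 CPM in that order. Ccdc153 and Tmem212 of that list were at 0 in replicate 3 of YAP1-MAMLD1-dR3R1 and Folr1 in replicate 3 of YAP1-TFE3, and the part of this tissue in both channels was not tested.

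Set beside each other, the tumours differed in many channels. Between YAP1-FAM118B and YAP1-MAMLD1-dR3R1 tumours 32 channels were called higher and 3 lower, where 12.7% of all genes were higher and 13.5% lower. Calls in either direction took in 26.2% of all genes. The lower ones included Kcnk6 and Kcnk13, which were each higher in YAP1-MAMLD1-dR3R1 tumours than in naive cortex. Kcnk13 (−1.14, edgeR adjusted p = 0.0244) lost this call without replicate 3 of YAP1-MAMLD1-dR3R1 (0.0848) or replicate 1, 2 or 3 of YAP1-FAM118B (0.0614, 0.0702 and 0.064). The 32 higher ones were led by Kcnv1, Kcnk4 and Kcnh7, with log2 differences of 4.45, 4.04 and 4.03, and included Kcnf1, a silent subunit, with 106, 172 and 89 CPM in YAP1-FAM118B tumours against 16.5, 15 and 3.28 CPM in YAP1-MAMLD1-dR3R1 tumours (3.40 ± 0.64, edgeR adjusted p = 0.00875). This count rested on a few libraries: it came to 12 without replicate 2 and 14 without replicate 3 of YAP1-MAMLD1-dR3R1, to 12, 15 and 23 without replicates 1, 2 and 3 of YAP1-FAM118B, and to 53 without replicate 2 of YAP1-TFE3, against 35 in both directions with all libraries. Without replicate 2 of YAP1-FAM118B and of naive cortex it was 7. Kcnv1, which led the list, kept its call in none of the fits without a library of either tumour: the adjusted p was 0.0428 with all libraries, 0.0698, 0.104 and 0.0952 without replicates 1, 2 and 3 of YAP1-MAMLD1-dR3R1 and 0.0859, 0.0919 and 0.0659 without those of YAP1-FAM118B, and it was 0.0651, 0.0645 and 0.0559 without those of naive cortex. Kcnk4 and Kcnh7 kept theirs.

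Between YAP1-TFE3 and YAP1-FAM118B tumours 69 channels were called lower and 4 higher, where 23.7% of all genes were lower, 28% higher and 51.7% either. The higher ones included Kcns1, Kcne4 and Cacna1d, and Kcne4 lost this call without replicate 2 of YAP1-TFE3 (edgeR adjusted p = 0.0602). Between YAP1-TFE3 and YAP1-MAMLD1-dR3R1 tumours, both poor in neuron transcripts, 23 channels were called lower and 7 higher, where 16.9% of all genes were lower, 22.6% higher and 39.5% either. Without replicate 2 of YAP1-TFE3, the library with the most neuron transcripts of its group, 58 channels were called in that comparison, against 30 with it. Kcnv1 was then called lower, with a log2 difference of −4.02 (edgeR adjusted p = 0.0433), where it showed no difference with all libraries (0.01, adjusted p = 0.995).

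Several channels of neurons and astrocytes parted company between these neuron-poor tumours. Kcna1 and Kcna2, which pair in the Kv1 channels of axons, differed between these tumours in opposite directions. Kcna1 had 10.1, 20.2 and 4.09 CPM in YAP1-TFE3 tumours against 115, 73 and 70.8 CPM in YAP1-MAMLD1-dR3R1 tumours, and naive cortex had 324, 246 and 296 CPM. Kcna2 had 163, 205 and 315 CPM in YAP1-TFE3 tumours against 66.1, 60 and 132 CPM in YAP1-MAMLD1-dR3R1 tumours, and naive cortex had 481, 342 and 424 CPM. Neither gene overlapped between these tumours, and the log2 difference of YAP1-TFE3 from YAP1-MAMLD1-dR3R1 was −2.91 for Kcna1 (edgeR adjusted p = 0.00161) and 1.40 for Kcna2 (0.00807). Against naive cortex Kcna2 fell by 0.87 (SE 0.33) in YAP1-TFE3 tumours (0.0357, or 0.0733 without replicate 3 of naive cortex) and by 2.27 (SE 0.34) in YAP1-MAMLD1-dR3R1 tumours (0.000306). Kcna6, another Kv1 gene, went with Kcna1, at 5.59, 21.1 and 8.31 CPM in YAP1-TFE3 tumours against 86.7, 128 and 175 CPM in YAP1-MAMLD1-dR3R1 tumours (−3.48 ± 0.49, adjusted p = 0.000498). In YAP1-MAMLD1-dR3R1 and YAP1-FAM118B tumours Kcna6 overlapped the 201, 126 and 189 CPM of naive cortex. The 10 oligodendrocyte markers, for the cells whose myelin borders these axonal channels, were called lower in YAP1-TFE3 tumours in 10 of 10, at 594 to 942 CPM in sum, and in 6 of 10 in YAP1-MAMLD1-dR3R1 tumours, at 1928 to 4447 CPM, against 5868 to 11797 CPM in naive cortex. None was at 0 in a library, and their part was not tested.

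Kcnj4, an inward rectifier of forebrain dendrites, had 106, 100 and 46.9 CPM in YAP1-TFE3 tumours and 18.4, 11.5 and 0.843 CPM in YAP1-MAMLD1-dR3R1 tumours, where naive cortex had 121, 130 and 40.2 CPM. It overlapped naive cortex in YAP1-TFE3 tumours (log2 fold change −0.20, edgeR adjusted p = 0.837), whose neuron markers were all called lower, and lay below it in YAP1-MAMLD1-dR3R1 tumours (−3.24 ± 0.89, 0.00971). The log2 difference between the tumours was 3.04 (0.0211), and the call was lost without replicate 2 of YAP1-MAMLD1-dR3R1 (0.0721) and without replicate 1 or 2 of YAP1-TFE3 (0.0636 and 0.0501). Kcnk2, a leak channel opened by stretch and lipids, had 42.5, 65.1 and 35.2 CPM in YAP1-TFE3 tumours and 11.5, 13.6 and 24.3 CPM in YAP1-MAMLD1-dR3R1 tumours, where naive cortex had 51, 52.3 and 40 CPM. Again YAP1-TFE3 tumours overlapped naive cortex (−0.01, 0.992) and YAP1-MAMLD1-dR3R1 tumours did not (−1.54, 0.0164, or 0.0558 and 0.0504 without replicates 1 and 2 of that tumour). Their difference had an adjusted p of 0.0269, and lost its call without replicate 1 of naive cortex (0.0505), replicate 1 or 2 of YAP1-MAMLD1-dR3R1 (0.0843 and 0.107), or replicate 1 or 2 of YAP1-TFE3 (0.0582 and 0.108). Kcnk1, another leak channel of neurons and astrocytes, had 99.5, 69.1 and 25.3 CPM in YAP1-TFE3 tumours, 48.5, 25.3 and 5.45 CPM in YAP1-MAMLD1-dR3R1 tumours and 111, 108 and 92.6 CPM in naive cortex, and its difference between the tumours was not called with all libraries (adjusted p = 0.142) and was without replicate 1 of YAP1-MAMLD1-dR3R1 (0.0419). Its fall in YAP1-MAMLD1-dR3R1 tumours (−1.97, 0.0252) lost its call without replicate 1 or 2 of naive cortex (0.058 and 0.0533) or replicate 2 of YAP1-MAMLD1-dR3R1 (0.0736).

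**Figure D5:**
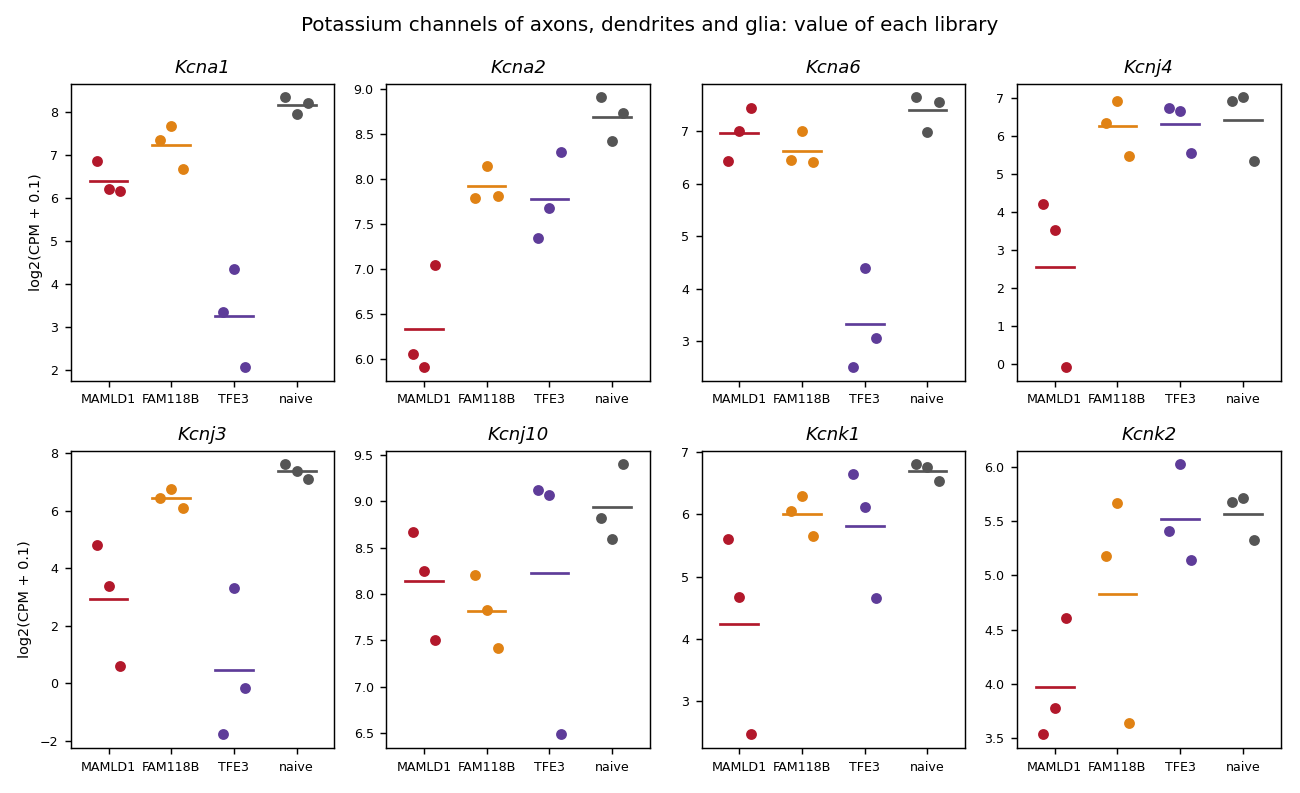
Potassium channels of axons, dendrites and glia in each library, as log2(CPM + 0.1) on the vertical axis with a range of its own in each panel, and the 4 groups along the horizontal axis. Points are the 3 libraries of a group and bars are their mean. Kcna1 and Kcna6 are lowest in YAP1-TFE3 tumours, Kcna2, Kcnj4 and Kcnk2 are lowest on average in YAP1-MAMLD1-dR3R1 tumours, and Kcnj3, a subunit of G-protein-gated channels, is low in both.

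Kcnh2, the ERG channel that also repolarises heart muscle, had 5.98, 9.22 and 2.83 CPM in YAP1-TFE3 tumours and 17, 35.5 and 60.8 CPM in YAP1-MAMLD1-dR3R1 tumours, where naive cortex had 43.3, 37 and 67.7 CPM. The YAP1-TFE3 libraries lay below all others, by −2.65 on the log2 scale from YAP1-MAMLD1-dR3R1 (edgeR adjusted p = 0.00322) and −3.03 ± 0.53 from naive cortex (0.000592). YAP1-MAMLD1-dR3R1 tumours overlapped naive cortex (−0.39, 0.51). Their neuron markers were low, and the part of neurons in the level of Kcnh2 was not tested.

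The channels were also placed against the fold changes of the 20 neuron markers, which ran from −4.06 to −0.96 for YAP1-MAMLD1-dR3R1, from −1.51 to −0.39 for YAP1-FAM118B and from −5.37 to −2.08 for YAP1-TFE3. Within that range lay 66, 72 and 59 of the 103 channels, and 41 lay within it in every fusion. Above it in every fusion lay 16, among them Cacna1f, Cacna1s, Kcnd1, Kcne3, Kcnj15, Kcnj2, Kcnj8, Kcnk13, Kcnk5, Kcnk6, Kcnmb1, Kcnn4, Kcnq1 and Kcns1. Below it in every fusion lay none. Below it in YAP1-TFE3 tumours were 14 channels: Cacna1i, Kcng3, Kcng4, Kcnh3, Kcnh5, Kcnj3, Kcnj5, Kcnj9, Kcnq3, Kcnq5, Kcns2, Kcns3, Scn1a and Scn4b. Below it in YAP1-MAMLD1-dR3R1 tumours were 9: Kcnb2, Kcnf1, Kcnh7, Kcnj12, Kcnk4, Kcnk9, Kcnv1, Scn1a and Scn9a. These positions are a description without a test.

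Genes that work with these channels without belonging to them fell alongside. Of 43 such genes, the auxiliary subunits of calcium channels, the HCN and NALCN channels and the proteins that cluster or gate channels, 41 were tested. YAP1-MAMLD1-dR3R1 tumours had 35 called lower, YAP1-FAM118B tumours 5 and YAP1-TFE3 tumours 36, and none was called higher in any of the tumours. That was 85.4%, 12.2% and 87.8% of the 41, where 28.8%, 8.45% and 30% of all genes were called lower. Of all genes 34.4%, 21.3% and 40.6% were called higher in that order. In YAP1-FAM118B tumours the lower calls thus lay near the share of all genes. Their median log2 fold changes were −2.74, −0.88 and −3.78, beside −2.65, −0.77 and −3.82 for the channels and 0.06, −0.05 and 0.23 for all genes. The 8 HCN and NALCN genes, which bring neurons toward threshold at rest, were called lower in 8 and 7 of 8 in YAP1-MAMLD1-dR3R1 and YAP1-TFE3 tumours and in 1 of 8 in YAP1-FAM118B tumours.

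At the lower edge of the count minimum, Kcnk15 had 10, 8 and 24 counts in YAP1-MAMLD1-dR3R1 tumours, 3, 11 and 0 in YAP1-FAM118B tumours, 0 in each YAP1-TFE3 tumour and 5, 4 and 7 in naive cortex, and it was the 1 channel of the 104 left out of the test. Scn11a, also just inside, had 0, 7 and 2, then 4, 1 and 0, then 0, 21 and 0 counts in the 3 tumours and 16, 8 and 13 in naive cortex. Kcna7, just outside, had 1, 15 and 0, then 9, 1 and 10, then 3, 1 and 2 counts in the tumours and 0 in each naive library. The 10 others under the minimum were Kcna10, Kcne1, Kcnj1, Kcnk16, Kcnk18, Kcnk7, Kcnmb3, Kcnv2, Scn10a and Scn4a. For 5 channels, Cacna1f, Kcne3, Kcnj15, Kcnk15 and Kcnn4, no naive library reached 10 counts, so that only their tumour libraries could bring them over the minimum. Kcng3, Kcnj5 and Scn11a met the minimum only with their naive libraries. The main sodium channel of excitatory neurons is listed under the older symbol Scn2a1, which the naming rule does not take in, and it had log2 fold changes of −3.62 (edgeR adjusted p = 0.00545), −0.99 (0.377) and −4.86 (0.00114) in the tumours of YAP1-MAMLD1-dR3R1, of YAP1-FAM118B and of YAP1-TFE3.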

How the data were processed

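The RNA libraries are 9 from whole tumours and 3 from naive cortex, and the labels do not say whether a library pools animals. The deposited values are whole-number counts for each gene symbol, from HTSeq on mm10 per the submitters' processing notes. No source used here gives its version, annotation or strand setting. The labels' protocol describes RNA from cell cultures, while the design text describes frozen tumours. The tissue field of the naive samples says brain tumour, and their source name, which gives cortex, was followed here. CPM and tests were computed from the counts with edgeR 4.0.16 and limma 3.58.1 in R 4.3.3 (filterByExpr with a minimum count of 10, TMM, a quasi-likelihood fit of all 12 libraries, Benjamini-Hochberg adjustment over 16364 genes, SE from the F statistic), after a check on simulated data. Log2 CPM used a prior count of 2. DESeq2 1.42.0, other scalings and filters, a replicate block, a 2-fold test and leaving out libraries were alternatives. Total counts per library were 19850220 to 24760814, and their counting error is the floor of the precision of low genes. The text names channels called without overlap by size of change, those shared by all fusions, those against their class, and a few fixed for their cell type. The channels, marker lists and partner lists were chosen with earlier results of these data known. Some named channels were added for their values, and a few channels are not reported here.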

Additional observations from a re-analysis of the deposited data

Results flagged for a closer look

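Cacna1d and Scn7a changed in opposite directions in different fusions, and the difference itself was tested. For Cacna1d the log2 difference of YAP1-TFE3 from YAP1-MAMLD1-dR3R1 tumours was 1.55 (edgeR adjusted p = 0.000562), with YAP1-TFE3 tumours above naive cortex and YAP1-MAMLD1-dR3R1 tumours below it. For Scn7a it was −7.67 (adjusted p = 0.00151), with YAP1-TFE3 tumours below naive cortex and YAP1-MAMLD1-dR3R1 tumours above it. All 3 YAP1-TFE3 libraries lay on 1 side of all 3 YAP1-MAMLD1-dR3R1 libraries for both genes. The falls against naive cortex were less steady than these differences. The lower call of Cacna1d in YAP1-MAMLD1-dR3R1 tumours and that of Scn7a in YAP1-TFE3 tumours were each lost without several single libraries.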

How the results depend on the processing

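The counts of channels against naive cortex in YAP1-MAMLD1-dR3R1 and YAP1-TFE3 tumours stayed within 1.5 times of 10 and 73 and of 9 and 78 under all alternatives run. Leaving out 1 library gave 8 to 11 and 53 to 74, and 8 to 9 and 75 to 80. The 4 channels called lower in YAP1-FAM118B tumours became 10 with DESeq2, 2 with the replicate block, 2 in the test against a 2-fold change, 44 with only the groups compared, and 2 to 6 without 1 library. Higher calls there ranged over 4 to 7. The 3 called lower in every fusion became 8 with DESeq2 and 40 with only the groups compared, and 2 to 4 without 1 library, where the 4 higher ones were 4 to 5. Between YAP1-FAM118B and YAP1-MAMLD1-dR3R1 the 35 calls became 55 with DESeq2, 0 in the test against a 2-fold change, 7 without both libraries with Xist and Y transcripts, and 12 to 53 without 1 library. Between YAP1-TFE3 and YAP1-MAMLD1-dR3R1 the 30 became 46, 11 in the 2-fold test, 19 with only the groups compared, and 24 to 58 without 1 library. Between YAP1-TFE3 and YAP1-FAM118B the 73 ranged over 57 to 79. Kcnv1, at 0.01 with all libraries in YAP1-TFE3 against YAP1-MAMLD1-dR3R1, was at −4.02 without replicate 2 of YAP1-TFE3. It ranged up to 0.48 without any other single library. The cause of these shifts was not tested, except that fits of only the groups compared estimate the spread from fewer libraries. The replicate numbers do not pair libraries by the labels. Same-numbered libraries deviated together with correlations of −0.111 to 0.324 (median 0.038 over 18 pairs), and the block moved no other count by over 1.5 times. Of the values for single channels under an alternative, 9026 kept their side of the threshold and direction, 198 passed it and 394 fell below it. The 1 value counted as reversed was that of Kcnv1, from 0.01. The share of higher calls among those of YAP1-FAM118B was 55.6%, and 41.2% with DESeq2. The 3 libraries per group limit what small shifts can be told from the spread, and low channels rest on few counts.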
